A study of Mus musculus with 6 samples.

Results

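The canonical transient receptor potential (TRPC) channels were followed in dorsal root ganglia (DRGs) of control and Tlx3cko mice by RNA sequencing. The members are Trpc1, Trpc2, Trpc4, Trpc5, Trpc6 and Trpc7. They were chosen by symbol, with earlier results of these data known. Each matched 1 of the 47937 rows of the deposited count table, for 6 genes in all. The canonical family is larger than these 6 genes, and the rest of it was not analysed here. Total RNA came from cervical, thoracic and lumbar DRGs of C57BL/6 mice about 2 months old, with 3 libraries of each genotype. The control mice are labelled wild type, and the Tlx3cko mice carry floxed Tlx3 alleles and SNS-cre (genotype Tlx3f/f;SNS-cre), a Cre driven by the Nav1.8 gene and therefore active mainly in nociceptive neurons from late embryonic life on. Whole ganglia were sequenced, so neurons without Cre and all non-neuronal cells are part of every library. Depth was 13761480, 15006871 and 18775628 counts in control replicates 1 to 3 and 15535247, 11458299 and 15303922 in Tlx3cko replicates 1 to 3.

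TRPC proteins are cation channels of the plasma membrane that let in calcium and sodium when receptors coupled to Gq proteins or tyrosine kinases activate phospholipase C. Functional channels are tetramers, often of mixed composition. TRPC6 and TRPC7 open in response to diacylglycerol, the lipid that phospholipase C releases. TRPC4 and TRPC5 form channels that Gi proteins and Gq proteins can open, and TRPC1 joins them in mixed tetramers. In sensory neurons TRPC1 and TRPC6 have been linked to mechanical sensitivity and TRPC5 to cold, while TRPC2 is known for pheromone transduction in the vomeronasal organ of rodents.

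The proteins share the TRP box, a short signature that follows the last transmembrane helix. Its codons are shown with flanking bases for 4 of the genes because the box marks the genes as one family while the bases under it differ between members. Each stretch lies within 1 coding exon on GRCm38 and was read from the GENCODE M21 transcripts, 5′ to 3′ on the coding strand, with the codons of the TRP box in capitals.
Trpc1 (chr9:95708357-95708386, minus strand): gataaaGAATGGAAGTTTGCTCGAgcaaag
Trpc4 (chr3:54302109-54302138, plus strand): gatataGAATGGAAATTTGCTCGAacaaag
Trpc5 (chrX:144388314-144388343, minus strand): gatattGAGTGGAAGTTTGCGAGAacaaag
Trpc6 (chr9:8656551-8656580, plus strand): gacgtgGAGTGGAAGTTTGCAAGGgccaaa
The codons of Trpc4 differed from those of Trpc5 at 4 of 18 bases and from those of Trpc1 at 1. Over the aligned residues of the coded proteins, with gaps and unaligned ends left out, the closest pairs were Trpc6 with Trpc7 and Trpc4 with Trpc5. Their identities were 75.2% and 67.6%. Trpc1 was closest to Trpc4, at 49.0%, and the other pairs ranged from 35.4% to 46.7%. None of these 6 genes had a match of 100 bases or longer at 98% identity to another of them.

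Trpc6 was the one of these genes to pass the test between the genotypes. It fell to 37.0% of its control level in Tlx3cko DRGs, whereas Trpc1, Trpc4, Trpc5 and Trpc7 did not pass the threshold and Trpc2 had no counts. Of the 5 members that could be tested, 1 was lower past the threshold and 0 were higher. Across all 20006 genes tested 4.25% passed, 2.56% lower and 1.69% higher in Tlx3cko. Of these 5 genes, 3 showed no overlap between the groups (Trpc1, Trpc4 and Trpc6), beside 19.7% of all genes tested. The median log2 fold change of the 5 was -0.62, beside -0.00365 for all genes tested.

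**Figure D1:**
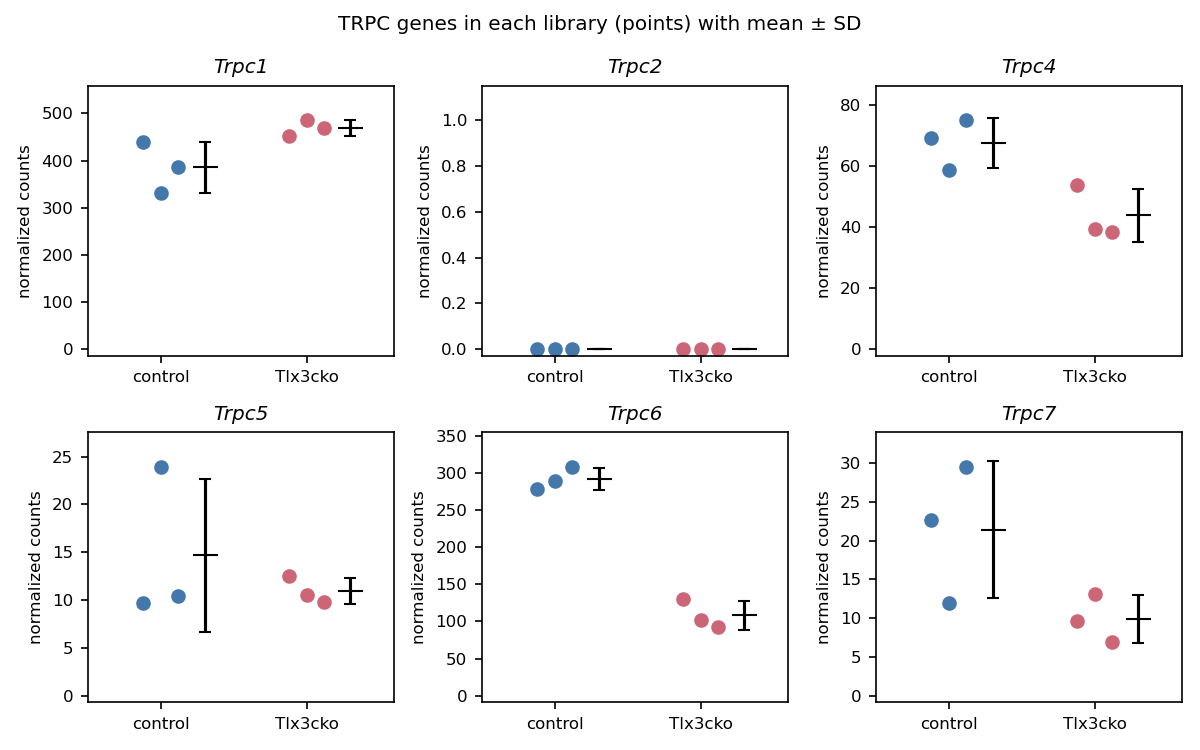
Normalized counts (y axis, from 0, a scale of its own in each panel) of the 6 TRPC genes in the 3 control and 3 Tlx3cko libraries (x axis), each point a library and each bar the mean ± SD. The Tlx3cko points of Trpc6 lie between 92.5 and 129.9 and its control points between 278.5 and 308.7, while Trpc2 is at 0 throughout.

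Normalized counts are counts scaled by edgeR's TMM factors to the mean effective library size of 14970767. Trpc6 (ENSMUSG00000031997, chromosome 9, 8544142 to 8680741, plus strand) encodes a channel opened directly by diacylglycerol. It had 278.5, 290.2 and 308.7 normalized counts in control replicates 1 to 3 and 129.9, 102.4 and 92.5 in Tlx3cko replicates 1 to 3. Every Tlx3cko library was thus below every control library, and the gap between the groups was wider than the range within either. The means were 292.5 ± 15.2 and 108.3 ± 19.4 (SD, n = 3 each). The quasi-likelihood test of edgeR put the change at -1.43 on the log2 scale (standard error, SE, 0.16, 95% interval -1.79 to -1.08, edgeR adjusted p = 0.000184). An exact two-sided permutation test of the 6 values gave p = 0.1, the smallest that 3 libraries against 3 allow. In bulk RNA, fewer cells that express a gene and less RNA in each cell cannot be told apart. A Trpc6 transcript shares 315 of its 3168 bases (9.9%) with near-identical stretches in transcripts of other loci such as Gm11127, and how the authors' counting treated such reads is not given in the sources used here.

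The sexes of the libraries were not balanced, and control replicate 3 was the one control library of the same sex as the Tlx3cko libraries. Xist, which female cells express, reached 591 counts in control replicate 1 and 493 in control replicate 2, where Ddx3y, a gene of the Y chromosome, was at 0. In the other 4 libraries Xist did not exceed 2 counts and Ddx3y was at 273 or more. With sex as a covariate the log2 fold change of Trpc6 was -1.51 (adjusted p = 0.00245), and against control replicate 3 alone it was also -1.51 (adjusted p = 0.00585, both from edgeR). Both fits rest on that single control library for the genotype contrast, so they are the same comparison and not separate support.

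Trpc1 and Trpc4 lay on either side of their control values without passing the threshold. Trpc1 (ENSMUSG00000032839, chromosome 9, 95705082 to 95750375, minus strand), the subunit that joins mixed channels, had 439.3, 331.1 and 386.9 normalized counts in control and 451.4, 485.5 and 468.4 in Tlx3cko replicates 1 to 3. The Tlx3cko values were all above the control values, with control replicate 1 close to the lowest of them. On the log2 scale the change was 0.28 (SE 0.12, 95% interval 0.013 to 0.55, edgeR adjusted p = 0.311). Trpc4 (ENSMUSG00000027748, chromosome 3, 54156035 to 54318471, plus strand) is a partner of Trpc1. It had 69.1, 58.8 and 75.0 normalized counts in control and 53.9, 39.4 and 38.4 in Tlx3cko replicates 1 to 3. All Tlx3cko values were below all control values, with Tlx3cko replicate 1 close to control replicate 2. On the log2 scale the change was -0.62 (SE 0.26, 95% interval -1.17 to -0.065, edgeR adjusted p = 0.271). The intervals are per gene and not adjusted for the number of genes tested.

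Trpc7 and Trpc5 were near the limit of what these libraries could measure. Trpc7 (ENSMUSG00000021541, chromosome 13, 56773113 to 56895993, minus strand), the closest relative of Trpc6 among the 6, had 21, 12 and 37 raw counts in control and 10, 10 and 7 in Tlx3cko replicates 1 to 3. After normalization, control replicate 2 (11.97) fell below Tlx3cko replicate 2 (13.1), so the groups overlapped. The change was -1.13 on the log2 scale (SE 0.51, 95% interval -2.24 to -0.029, edgeR adjusted p = 0.326), and this interval also holds the value of Trpc6. Trpc5 (ENSMUSG00000041710, chromosome X, 144381671 to 144688180, minus strand), which is linked to cold sensing, had 9, 24 and 13 raw counts in control and 13, 8 and 10 in Tlx3cko replicates 1 to 3. Control replicate 2 stood apart, and the other 5 libraries lay close together at between 9.71 and 12.5 normalized counts. On the log2 scale the change was -0.41 (SE 0.55, 95% interval -1.60 to 0.78, edgeR adjusted p = 0.827). Its sign turned without control replicate 2 (0.12, adjusted p = 0.969), and also with sex as a covariate (0.080, adjusted p = 0.99), both from edgeR. No difference was detectable at this depth for Trpc5.

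Trpc2 (ENSMUSG00000100254, chromosome 7, 102083116 to 102096396, plus strand) had 0 counts in all 6 libraries and was not tested. A count of 0 allows up to 3 counts in each library. The annotation places 97.5% of its exonic bases (2803 bases) inside exons of Xntrpc, a readthrough gene on the same strand, and the remaining 71 bases inside exons of Xndc1. How reads shared by overlapping genes were counted is not given in the sources used here, so the row does not tell whether Trpc2 RNA was absent. Xntrpc itself had 4, 4 and 0 counts in control replicates 1 to 3, and in Tlx3cko replicates 1 to 3 it had 0, 0 and 2. These counts carry the same limit.

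Levels were next compared between the members. For this the counts were divided by the length of the union of a gene's exons and scaled to the same total in each library (TPM). In control DRGs the highest levels were those of Trpc6, at 11.3 ± 0.81 TPM, and Trpc1, at 9.42 ± 1.69 TPM (SD, n = 3 each). These 2 did not differ beyond their spread, since Trpc1 reached 11 TPM in control replicate 1 and Trpc6 was at 10.6 TPM in control replicate 2. Trpc4 followed at 1.65 ± 0.26 TPM, below every value of Trpc1. Trpc7 was at 1.09 ± 0.48 TPM and Trpc5 at 0.56 ± 0.28 TPM, and their ranges overlapped with each other. The range of Trpc7 also overlapped with that of Trpc4, but not with the longest transcript as length, where Trpc4 was between 2.59 and 3.53 TPM and Trpc7 between 0.52 and 1.37 TPM.

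The levels of Trpc1 and Trpc6, which overlapped in control, lay apart in Tlx3cko DRGs. Trpc1 led at 11.2 ± 0.40 TPM, and Trpc6 came after it at 4.12 ± 0.87 TPM without overlap. Trpc4 was at 1.05 ± 0.24 TPM, Trpc7 at 0.49 ± 0.16 TPM and Trpc5 at 0.42 ± 0.067 TPM, and only Trpc7 and Trpc5 overlapped among these neighbours. Within each library the ratio of the Trpc1 level to the Trpc6 level was 0.995, 0.72 and 0.79 in control replicates 1 to 3 and 2.19, 2.99 and 3.20 in Tlx3cko replicates 1 to 3. No Tlx3cko ratio came near the control ratios. Of the summed level of the 6 genes, Trpc6 made up 47.2% ± 3.4 in control and 23.7% ± 3.25 in Tlx3cko libraries, and Trpc1 made up 39.1% ± 3.79 and 65.0% ± 4.39 (SD, n = 3 each). The share of Trpc4 was 6.85% ± 0.42 in control and 6.06% ± 0.97 in Tlx3cko libraries. These ratios and shares used the union of exons and depend on the length chosen. With the longest transcript as length, Trpc1 was above Trpc6 in control replicate 1 (15.84 and 14.05 TPM) and below it in control replicates 2 and 3. In every Tlx3cko library Trpc1 stayed above Trpc6 with that length.

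**Figure D2:**
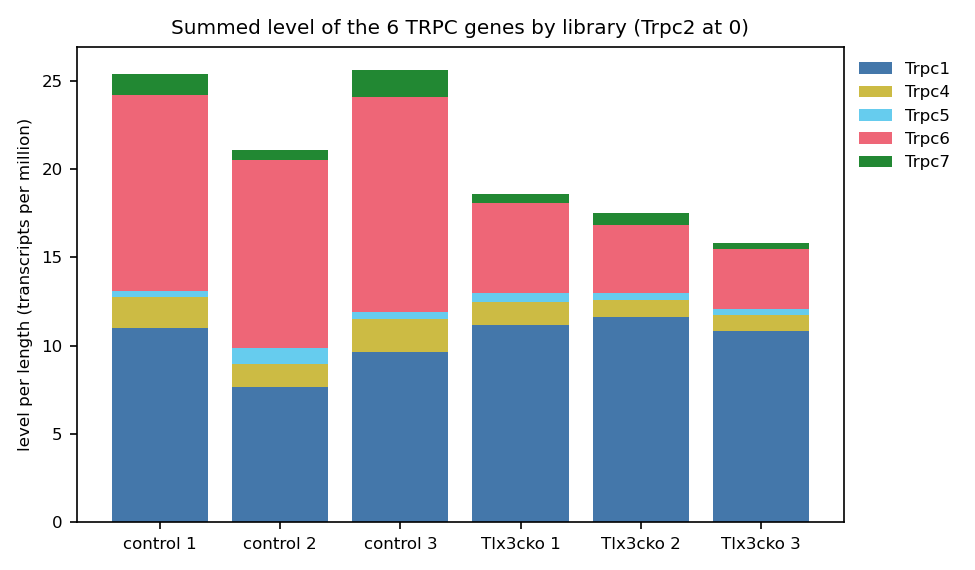
Level per length in TPM (y axis) of the TRPC genes, stacked for each of the 6 libraries (x axis), with Trpc2 at 0. The summed level of the 6 genes lies between 21.1 and 25.6 in control and between 15.8 and 18.6 in Tlx3cko libraries, and the Trpc6 segment averages 11.3 in control and 4.12 in Tlx3cko libraries.

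The targeted gene and the tissue were checked against the labels. Tlx3 itself had 1973, 2256 and 1941 normalized counts in control and 1652, 1380 and 1452 in Tlx3cko replicates 1 to 3, without overlap. Its log2 fold change was -0.46 (edgeR adjusted p = 0.0122), and the call was lost with sex as a covariate (log2 fold change -0.38, adjusted p = 0.223) and in 3 of the fits that left out a library, with edgeR adjusted p = 0.0606 when it was the second control and 0.091 or 0.0706 when it was the second or the third Tlx3cko library. Avil, a marker of sensory neurons, had 15070, 15470 and 16130 normalized counts in control and 14820, 14000 and 14150 in Tlx3cko replicates 1 to 3. Its groups did not overlap, and it did not pass the threshold (log2 fold change -0.12, edgeR adjusted p = 0.453). Of the 6 spinal cord genes, Olig2 and Slc6a5 were at or near 0, with at most 3 counts in any library, while Gfap (8 to 64 counts), Hoxc8 (54 to 90), Aqp4 (40 to 146) and Slc17a6 (2065 to 4098) were detected in all 6 libraries, and none of these 4 passed the threshold (edgeR, 0 with an unadjusted p under 0.05).

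The fall of Trpc6 was set beside markers of the cell types that a ganglion holds. For 6 genes that all DRG neurons share, 0 of 6 passed the threshold. An unadjusted p under 0.05 (edgeR) was found for 3 of them, beside 2908 of all 20006 genes tested. For 4 of the 6 the groups did not overlap, beside 19.7% of all genes. Of these, Tubb3 and Snap25 were higher and Pou4f1 and Avil lower in Tlx3cko. The sum averaged 119000 in the control and 123000 in the Tlx3cko libraries, in normalized counts, with Tubb3 the most abundant. Such a sum can hide these opposite shifts. Markers of several other neuron classes were lower. For the MrgprD class NP1, 7 of 7 markers were lower past the threshold, and their sum was 28850, 33660 and 35830 normalized counts in control and 21960, 21320 and 20080 in Tlx3cko replicates 1 to 3, with Ret the most abundant. For the class with Nppb and Sst (NP3), 5 of 6 were lower, and the sum was 1751, 2017 and 2417 in the control libraries, against 484.1, 423.8 and 445.8 in Tlx3cko, with Osmr the most abundant. For the touch neurons with tyrosine hydroxylase (TH C-LTMRs), 5 of 5 were lower, and the sum was 4051, 6775 and 6273 in the control libraries, against 2034, 2027 and 1899 in Tlx3cko, with Gfra2 the most abundant. NP1 and TH C-LTMR markers share Gfra2. For the MrgprA3 class NP2, 2 of 4 were lower (Mrgpra3 and Hrh1) and 0 were higher past the threshold, although Mrgprx1 was at 226.6 in control and 433.6 in Tlx3cko without overlap (log2 fold change 0.95, unadjusted p = 0.00434 and adjusted p = 0.0798 from edgeR). The sums overlapped, at 3963, 3046 and 3425 in the control libraries, against 3297, 2820 and 2723 in Tlx3cko, with Gfra1 the most abundant. No marker of these 4 lists was at 0 in all libraries. The part of these neuron classes in the fall of Trpc6 was not tested.

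Trpc6 is also known from smooth muscle. Of the 5 markers of smooth muscle and pericytes, 0 passed the threshold in the edgeR test. An unadjusted p under 0.05 was found for 3, beside 2908 of all 20006 genes tested. These were Myh11 at a log2 fold change of 0.69 and Rgs5 and Pdgfrb at -0.28 and -0.53. Their sum was 2245, 2390 and 2672 normalized counts in control and 2360, 2069 and 2010 in Tlx3cko replicates 1 to 3, with Rgs5 the most abundant. The groups overlapped, and the Tlx3cko mean was 88.1% of the control mean. Of the 5 fibroblast markers, 3 were lower past the threshold (Col1a1, Dcn and Pdgfra), and the sum stood at 4280, 4791 and 4489 in the control libraries, against 3510, 3312 and 3679 in Tlx3cko, 77.4% of the control mean, with Dcn the most abundant. None of these 10 genes was at 0 in all libraries. The part of pericytes and fibroblasts in the fall of Trpc6 was not tested.

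**Figure D3:**
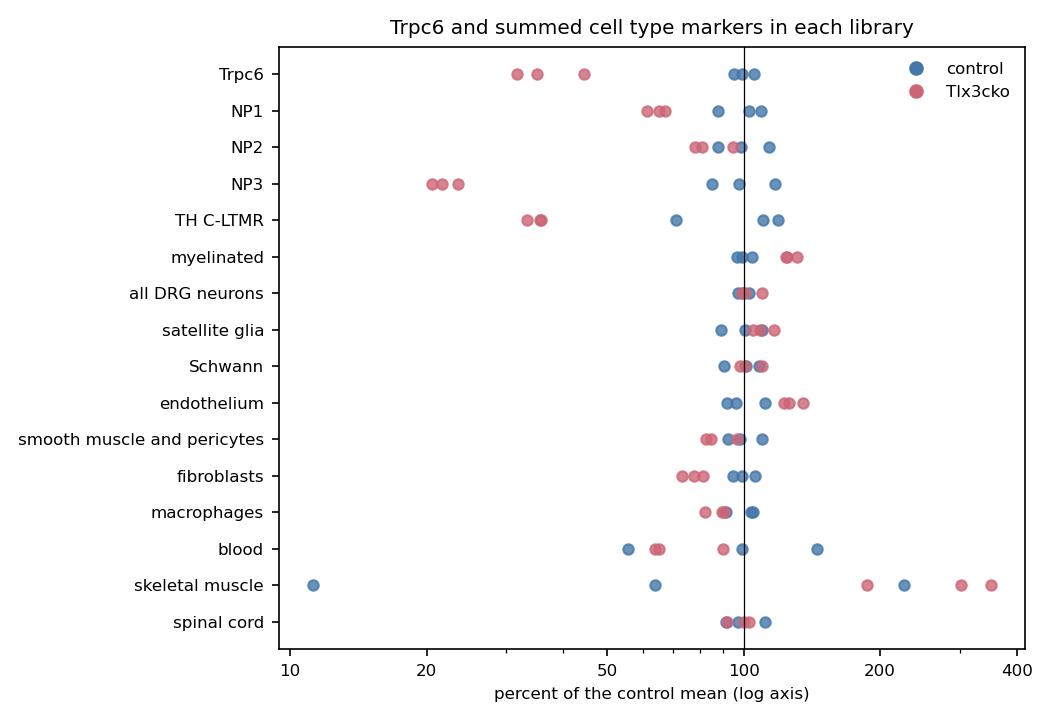
Trpc6 and the summed markers of the cell types shown (y axis) in each library as a percentage of the control mean (x axis, log scale), with control libraries in blue and Tlx3cko libraries in red. The Tlx3cko points of Trpc6, NP3 and TH C-LTMR lie far to the left of their control points, while those of all DRG neurons, Schwann cells and spinal cord overlap with the controls. The spinal cord sum is mostly Slc17a6.

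Genes with the pattern most like a TRPC gene were looked up for Trpc1, Trpc4 and Trpc6, whose mean reached 50 normalized counts. Likeness was the Pearson correlation of log2(CPM + 1), with CPM the counts scaled to library size, over the 6 libraries. These r describe 6 points that fall into 2 genotypes and share their depths, and each was among the 3 highest of 13372 candidate genes, so a high r was to be found for any member. For Trpc6 the nearest were Moxd1 (r = 0.9995), Lig1 (r = 0.996) and Cdhr1 (r = 0.995), which were all lower in Tlx3cko DRGs past the threshold, with log2 fold changes of -1.50, -0.89 and -1.02. For Trpc1 the nearest were Garem1, Ncoa1 and Engase, with r between 0.996 and 0.998, and for Trpc4 they were Qrsl1, Pcna and Znrf2, with r between 0.990 and 0.997. None of these 6 genes passed the threshold.

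The other TRP channels show where Trpc6 stands in the superfamily. Of 21 genes listed, 17 could be tested, of which 2 were lower (Trpm6 and Trpm8) and 1 was higher (Trpv1), beside 4.25% called among all genes, and the median log2 fold change was -0.013. Trpv1, the capsaicin receptor, had 2393, 1888 and 2430 normalized counts in the control libraries, against 5567, 4950 and 4989 in Tlx3cko. It moved the opposite way to Trpc6, at a log2 fold change of 1.21 (SE 0.10). Trpm6, a magnesium channel with a kinase domain, had 24, 40 and 59 raw counts in the control libraries, against 3, 4 and 5 in Tlx3cko. Its log2 fold change was -3.10 (SE 0.47, edgeR adjusted p = 0.00181), the one tested change below that of Trpc6 among the 17 other TRP and 44 partner genes. Trpm8, the menthol and cold receptor, had a log2 fold change of -0.44 (edgeR adjusted p = 0.0462), and this call was lost in 9 of 15 alternative fits, among them all 6 that left out a library. Trpa1, the receptor of mustard oil, did not pass the threshold (log2 fold change -0.36, SE 0.17, edgeR adjusted p = 0.333).

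**Figure D4:**
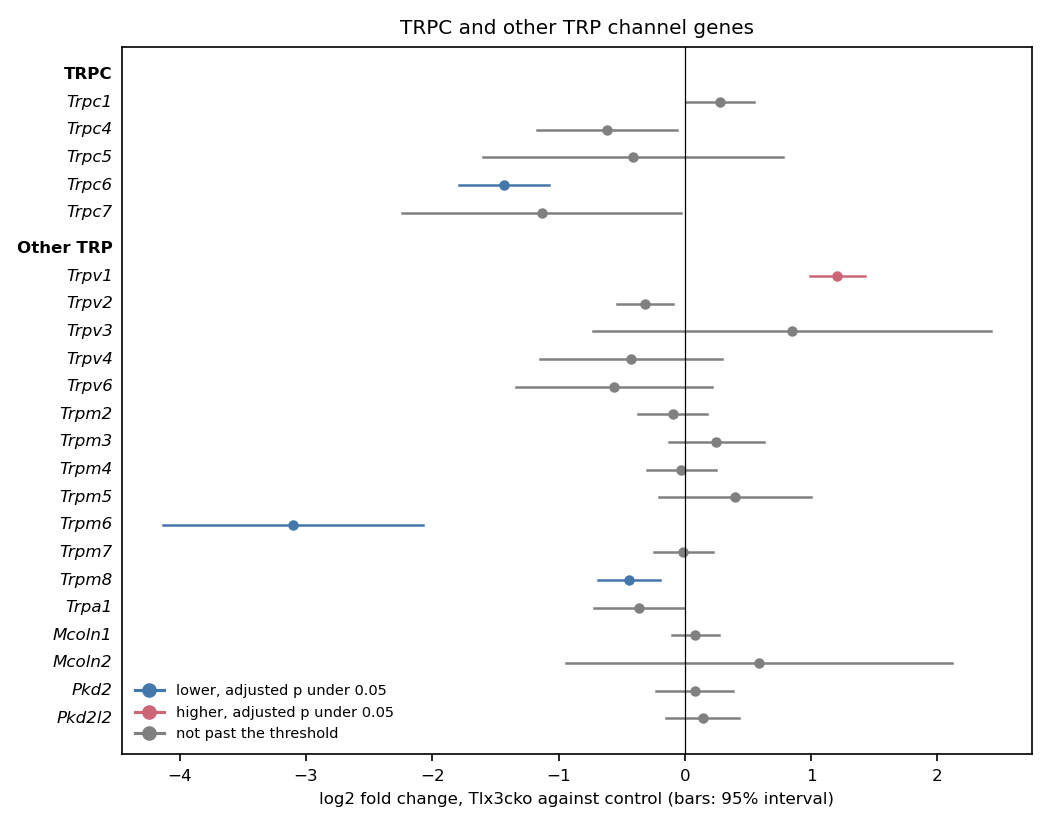
Log2 fold change of Tlx3cko against control (x axis) with 95% intervals for the 5 tested TRPC genes and 17 other TRP genes (y axis), coloured by direction for genes past the threshold. Trpc6 is at -1.43 with an interval away from 0, and the interval of Trpc5 crosses 0.

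Partner genes were then read from a list in 4 classes. Of 44 genes, all tested, 3 were lower (Plcb3, Dgkz and Cav1) and 2 were higher (Plcb1 and Itpr3), which is 11.4%, beside 4.25% of all genes. The median log2 fold change of the list was 0.020, close to the -0.00365 of all genes.

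Of the 12 genes of phospholipase C and Gq upstream of TRPC opening, 1 was lower (Plcb3), 1 was higher (Plcb1) and 10 did not pass the threshold. Plcb3, an enzyme activated by Gq and the gene of the class with the most counts, had 12750, 13640 and 12620 normalized counts in control and 8578, 8297 and 7513 in Tlx3cko replicates 1 to 3, a log2 fold change of -0.68 (SE 0.07, edgeR adjusted p = 0.000118). Plcb1, another enzyme of the same group, had 375.6, 320.2 and 394.9 in the control libraries, against 751.7, 824.1 and 872.9 in Tlx3cko, a log2 fold change of 1.17 (SE 0.11, edgeR adjusted p = 5.2e-05). The groups did not overlap for either gene, and both calls were kept in 15 of 15 alternative fits. Gnaq, which encodes the Gq subunit that activates these enzymes, had the next most counts and a log2 fold change of -0.11 (SE 0.08, 95% interval -0.29 to 0.066).

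Of the genes that handle diacylglycerol, the lipid that opens TRPC6, 1 of 11 passed the threshold. Dgkz, a kinase that turns diacylglycerol into phosphatidic acid, had the most counts among them. These were 15980, 16760 and 15850 normalized counts in control and 11600, 10540 and 10490 in Tlx3cko replicates 1 to 3, with every Tlx3cko library below every control library. The log2 fold change was -0.57 (SE 0.07, edgeR adjusted p = 0.000258), and the call was kept in 15 of 15 alternative fits. Dgkh, the kinase with the next most counts, had values that overlapped (log2 fold change 0.25, SE 0.17).

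Of the 8 genes of store release and store-operated entry, 1 was higher. Itpr3, a receptor for inositol trisphosphate on the endoplasmic reticulum, had 1189, 998.4 and 1122 normalized counts in the control libraries, against 1307, 1467 and 1491 in Tlx3cko, a log2 fold change of 0.37 (SE 0.09, edgeR adjusted p = 0.0462), but the call was lost in 7 of 15 alternative fits, with highest adjusted p = 0.356 under sex as a covariate, and in 4 of 6 that left out a library (all but control replicate 1 and Tlx3cko replicate 1). Orai2, a pore subunit of store-operated channels, had a log2 fold change of 0.39 (SE 0.10) and did not pass (edgeR adjusted p = 0.0564). Stim1, the calcium sensor of the store, was at 964.3 ± 53.5 in control and 987.9 ± 21.4 in Tlx3cko DRGs (normalized counts, SD, n = 3 each), with a log2 fold change of 0.034 (95% interval -0.15 to 0.22).

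Of the 13 scaffolds and binding partners, 1 was lower. Cav1, a caveolar scaffold reported to bind TRPC1, had 471.7, 482.7 and 494.6 normalized counts in the control libraries, against 384.0, 339.9 and 352.3 in Tlx3cko. Its log2 fold change of -0.43 (SE 0.11, edgeR adjusted p = 0.0442) lost its call in 8 of 15 alternative fits, among them 5 of 6 that left out a library (all but Tlx3cko replicate 1). Calm3, a calmodulin gene, had a log2 fold change of 0.098 (SE 0.07) and did not pass the threshold (edgeR adjusted p = 0.603).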

How the data were processed

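The authors deposited raw read counts per gene for 3 control and 3 Tlx3cko libraries (paired-end reads from NEBNext Ultra libraries). The submitters' processing notes name STAR 2.5.2a and mm10; the counting program, annotation and use of strand are not given in the sources used here. Of the 47937 rows, 47224 matched a symbol of GENCODE M21 (GRCm38), and 208 loci outside the annotation held 0.245% of the counts.

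The quasi-likelihood test of edgeR 4.0.16 (R 4.3.3) was run after TMM normalization on the 20006 genes that had 10 or more counts over all libraries, and the threshold was a Benjamini-Hochberg adjusted p of 0.05. The SE of a log2 fold change is its size divided by the square root of F. Totals per library lay between 11458299 and 18775628, which limits precision for genes with few counts. Libraries of the same genotype differed by more than sampling noise (chi-square per degree of freedom 4.32 to 10.1). The study gives n = 3 mice for each genotype and describes the 3 samples as independent. Levels per length used the union of exons, or the longest transcript as an alternative. Sequence matches used blastn 2.17.0 and Biopython 1.88. The edgeR fit was tested on simulated data.

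All members are named, with Tlx3, partner and other TRP genes past the threshold, the 2 most abundant genes per partner class, markers that moved with a result, and the 3 genes most like each member. A few further genes were named after their values were seen (Trpa1, Stim1, Avil, Mrgprx1, the spinal cord genes), and a few items that the rule would name are not reported here. The members and lists were chosen with earlier results of these data known. Alternatives were DESeq2 1.42.0, limma-voom (limma 3.58.1), other normalizations and filters, the replicate number as a block, sex read from Xist and Y-linked counts, and each library left out in turn.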

Additional observations from a re-analysis of the deposited data

How the results depend on the processing

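Trpc6 stayed lower past the threshold in all 15 alternative fits, with log2 fold changes from -1.589 to -1.324 and a highest adjusted p of 0.00585 (edgeR). Trpc1, Trpc4 and Trpc7 kept their direction and passed the threshold in none. Trpc5 turned to 0.1241 without control replicate 2 (range with each library left out -0.626 to 0.1241), to 0.08033 with sex as a covariate and to 0.07872 against the control library of the same sex. The count of 851 genes became 1529 with no filter on low counts, 1149 with DESeq2, 418 at an adjusted p under 0.01, 487 with sex as a covariate, 546 against the control library of the same sex, and 488 to 938 with each library left out, lowest without Tlx3cko replicate 2 and also more than 1.5 times lower without control replicate 2 (530) or Tlx3cko replicate 3 (512). Partner genes called higher numbered 4 with DESeq2, limma-voom and filterByExpr, 1 in both fits on sex, and 1 to 3 with each library left out (1 without control replicate 2 or 3 or Tlx3cko replicate 2 or 3). Other TRP genes called lower numbered 4 with no filter, 1 with the replicate block and in both fits on sex, and 1 to 3 with each library left out (3 without control replicate 1 and 1 otherwise). Both fits on sex rest on control replicate 3 for the genotype contrast and assume that it varies like the other libraries. With the longest transcript as length, levels in TPM were 13.6 and 16.3 for Trpc1, 3.13 and 2.00 for Trpc4, and 14.4 and 5.27 for Trpc6 in control and Tlx3cko, and the order of the means within each genotype was as before, while control Trpc4 and Trpc7 no longer overlapped. Replicate numbers did not pair the libraries, with correlations of same-numbered deviations of -0.114, -0.0385 and -0.0798; with the replicate block 770 genes passed, and Trpc6 was at -1.442. The cause of these shifts was not tested.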

Other observations

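Marker lists outside the classes set beside Trpc6 also differed between the genotypes. Of 6 markers of myelinated neurons 3 were higher in Tlx3cko DRGs past the threshold (Nefh, Pvalb and Cntnap2), with a sum of 126.4% of the control mean. Of 5 endothelial markers 1 was higher (Pecam1), with a sum of 127.9%. Of 5 skeletal muscle markers 1 was higher (Myh4), and the sums were 1779, 502.7 and 88.5 normalized counts in control and 2776, 2386 and 1478 in Tlx3cko replicates 1 to 3, with control replicate 1 above Tlx3cko replicate 3. For satellite glia, Schwann cells, macrophages, blood and spinal cord no tested marker passed, and the sums were 110.1%, 102.7%, 87.5%, 73.0% and 98.3% of the control mean. The spinal cord sum was mostly Slc17a6, with a control mean of 2922.6 of 3110 normalized counts. It therefore follows that gene and says little about the rest of its list.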
